A study of Mus musculus with 36 samples.

Results

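Bone marrow plasma cells carrying the Ccnd1 transgene without Ikk2ca, the other transgene of their cohort, were compared with control plasma cells of the same cohort. The comparison uses the 4 libraries of the group labelled Ccnd1 and the 4 libraries labelled Control(D), 8 of the 36 libraries of the series, and covers all genes. Every library came from 2000 sorted mouse cells of strain C57/BL6, gated as CD138+TACI+ and, where a reporter was carried, as reporter-positive. The same cohort of 18 libraries holds the groups Ikk2ca(D) and Ccnd1-Ikk2ca, the latter with both transgenes, and these served as a second look at genes named in the first comparison. Control(M) is the control group of the other cohort, whose further groups are labelled with MMSET, Ikk2ca or both. The promoter of the transgene, the recombinase, the reporter in the controls and the age of the mice are not given in the labels. The labels do not say that libraries of a group came from separate mice, so p-values measure only the spread between these libraries, which may be technical.

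Ccnd1 encodes cyclin D1, a regulatory subunit that activates the kinases CDK4 and CDK6. These kinases phosphorylate the retinoblastoma protein RB and its relatives, which releases E2F transcription factors and switches on genes for entry into S phase. CDK inhibitors of the INK4 and CIP/KIP families act against this step. Plasma cells are terminally differentiated antibody-secreting cells that have normally left the cell cycle, and overexpression of a D-type cyclin is a common feature of their malignant counterpart, multiple myeloma.

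Only Ccnd1 itself passed the test across all genes. Its level in counts per 1000000 reads (CPM) was 1.26, 0.654, 0.596 and 0.798 in Control(D) libraries 1 to 4. It was 252, 282, 284 and 374 CPM in Ccnd1 libraries 1 to 4. The groups lay far apart, and the transgene label was borne out in every library. The means were 0.827 ± 0.301 and 298 ± 52.7 CPM (SD, n = 4 each), a log2 fold change of 8.49 with a standard error of 0.696 and a 95% interval of 7.02 to 9.96 (edgeR quasi-likelihood test, Benjamini-Hochberg adjusted p = 2.4e-05). As a fold, this is 360-fold, with an interval of 129 to 999. The 4 control libraries held 217 Ccnd1 reads in all and the 4 Ccnd1 libraries 71317. In the libraries with both transgenes it reached 275 to 964 CPM against 0.54 to 3.49 CPM in Ikk2ca(D), a log2 fold change of 8.98 (edgeR adjusted p = 1.19e-05).

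The gene lies on the minus strand of chromosome 7, at chr7:144929931-144939925 (GRCm38). The deposited values are estimated counts per transcript, without read positions. The shares below are therefore Salmon's division of reads between transcripts that share bases, and not counts of intron-retaining RNA. In the Ccnd1 libraries the protein-coding transcript Ccnd1-201 (5 exons, 3740 bases, 888 of them coding) took 44.1 to 45.2% of the gene's reads. A shorter transcript with a retained intron, Ccnd1-203 (1773 bases), took 41.5 to 42.7%, and Ccnd1-202 (470 bases) took 12.8 to 13.4%. In the controls Ccnd1-201 took 100, 78.6, 100 and 100% of the few reads present. Neither of the short transcripts shares a base with the 2676-base 3′ UTR of Ccnd1-201, whereas 723 bases of Ccnd1-203 and 375 bases of Ccnd1-202 lie in its coding exons. Libraries with both transgenes divided their Ccnd1 reads in the same way, with 43.5 to 45.2% on Ccnd1-201 and 41.7 to 43.3% on Ccnd1-203. Transcript values cannot tell transgene from endogenous reads.

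Between genes, levels are compared in transcripts per 1000000 (TPM), which is scaled for length. In control plasma cells Ccnd2 was the leading D-type cyclin at 41.6 ± 16.4 TPM (SD, n = 4), ahead of Ccnd3 at 9.32 ± 1.3 TPM, with Ccnd1 at 0.137 ± 0.0972 TPM. In the Ccnd1 libraries Ccnd1 stood at 74.1, 78.5, 84.0 and 153 TPM, a mean of 97.5 ± 37.4 TPM. Ccnd2 averaged 115 ± 104 TPM there, with libraries between 14.3 and 223 TPM, so Ccnd1 was the higher of both in libraries 1 and 3 and the lower in libraries 2 and 4. The 3 D-type cyclins together summed to 51.1 ± 17.4 TPM in controls and 220 ± 134 TPM in the Ccnd1 group. These levels depend on the short transcripts. On protein-coding transcripts alone, a setting chosen after the data were seen, Ccnd1 was 9.48, 9.81, 10.9 and 20.0 TPM in the Ccnd1 libraries, a mean of 12.6 ± 5.02 TPM. Ccnd2 was 8.84, 119, 25.3 and 138 TPM on that scale, above Ccnd1 in libraries 2, 3 and 4. The summed level of the 3 genes was then 34.5 ± 10.9 TPM in controls and 92.9 ± 69.7 TPM in the Ccnd1 group, with overlap. Control(M) plasma cells held 136 ± 56.1 TPM of Ccnd2, a mean within the range of the Ccnd1 group.

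**Figure D1:**
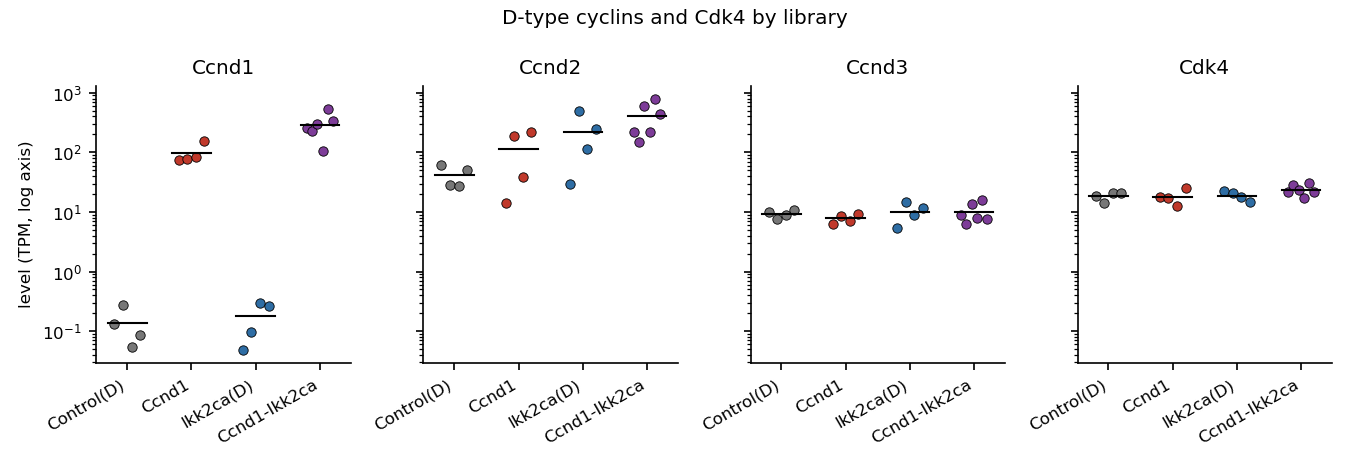
Level per length (TPM summed over all transcripts, log axis) of the D-type cyclin genes Ccnd1, Ccnd2 and Ccnd3 and of Cdk4 in each library of the 4 cohort groups, with the mean of each group as a bar. Ccnd1 separates libraries with the transgene from those without it, Ccnd2 spreads from 14.3 to 223 TPM within the Ccnd1 group, and Ccnd3 and Cdk4 overlap.

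Among the partners of cyclin D1, none passed the test. Ccnd2, an alternative D-type cyclin, was 141, 71.5, 77.4 and 107 CPM in the controls and 41.4, 532, 143 and 454 CPM in the Ccnd1 libraries. Ccnd1 library 1 was below all controls and libraries 2, 3 and 4 were above them, so the groups overlapped. The log2 fold change was 1.56 with an interval of 0.06 to 3.06 (edgeR adjusted p = 0.776). Ccnd3 was 44.6 ± 5.16 CPM in controls and 41.3 ± 6.5 CPM in the Ccnd1 group, a log2 difference of -0.11 with an interval of -0.49 to 0.27. Cdk4, the kinase partner, was 48.9 ± 9.28 and 50 ± 2.33 CPM, a difference of 0.03 with an interval of -0.34 to 0.4. Cdk6 was 5.07 to 10.6 CPM in controls and 4.43 to 10.7 CPM in the Ccnd1 libraries, with a wide interval of -2.3 to 3.02.

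The CDK inhibitor list held 7 genes, all tested, with a median log2 fold change of 0.49, 4 above 0 and 3 below. Cdkn1a encodes p21, an inhibitor that p53 induces. It was 3.23, 1.96, 2.68 and 2.04 CPM in the controls and 1.76, 8.36, 3.97 and 9.06 CPM in the Ccnd1 libraries, with library 1 below every control. Its log2 fold change was 1.22 with an interval of 0.28 to 2.17 (edgeR adjusted p = 0.739). Within the Ccnd1 group, libraries 2 and 4 held the highest levels of both Ccnd2 and Cdkn1a, and library 1 the lowest. Cdkn2c, which encodes the INK4 inhibitor p18 known for its part in plasma cell differentiation, was 8.55 to 9.94 CPM in controls and 8.59 to 19 CPM in the Ccnd1 libraries, a difference of 0.49 (edgeR adjusted p = 0.89). Cdkn1b, which encodes p27, differed by -0.12.

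Of the 3 pocket protein genes, Rb1 had the largest difference. It was 7.92, 3.86, 1.52 and 2.74 CPM in the controls and 13.6, 3.86, 10.8 and 4.5 CPM in the Ccnd1 libraries, a log2 fold change of 1.03 with an interval of 0.11 to 1.94 (edgeR adjusted p = 0.739). The groups overlapped. Its relatives Rbl1 and Rbl2 differed by 0.13 and 0.1. The 10 E2F and DP genes had a median of -0.21, with 4 above 0 and 6 below. None had groups that did not overlap, beside 1.62% above and 1.32% below over all genes tested. Activator E2f1 differed by 0.34, E2f2 by 0.05 and E2f3 by 1.19 on the log2 scale, E2f3 from a low level of 0.761 to 1.46 CPM in controls. Tfdp1, the DNA-binding partner of the E2F proteins, was 22, 17.9, 9.42 and 16.9 CPM in controls against 7.82, 9.69, 6.93 and 13.8 CPM, a difference of -0.79 that did not pass.

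Across the transcriptome 15323 genes were tested and 1 was called at an adjusted p under 0.05, or 0.00653% of those tested. At an unadjusted p under 0.05, 556 genes were higher in the Ccnd1 group (3.63% of those tested) and 408 were lower (2.66%). The 4 Ccnd1 libraries all lay above the 4 controls for 248 genes (1.62%) and all below them for 202 genes (1.32%). The median log2 fold change over all genes tested was 0.01. For the 5935 genes with an average of at least 3 on the log2 CPM scale the median standard error was 0.244. It was 1.85 for genes averaging below 0 on that scale, so for weakly expressed genes only very large differences were detectable at this depth. A fit of the 8 libraries alone tested 13007 genes and called 5, or 0.0384%: Ccnd1 and 4 immunoglobulin V genes described further on. DESeq2 tested 16890 genes and called 142, or 0.841%, with 91 higher and 51 lower. Of these 142, 96 had at most 3 reads in 1 of the groups, and limma with voom called none (929 genes at an unadjusted p under 0.05).

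**Figure D2:**
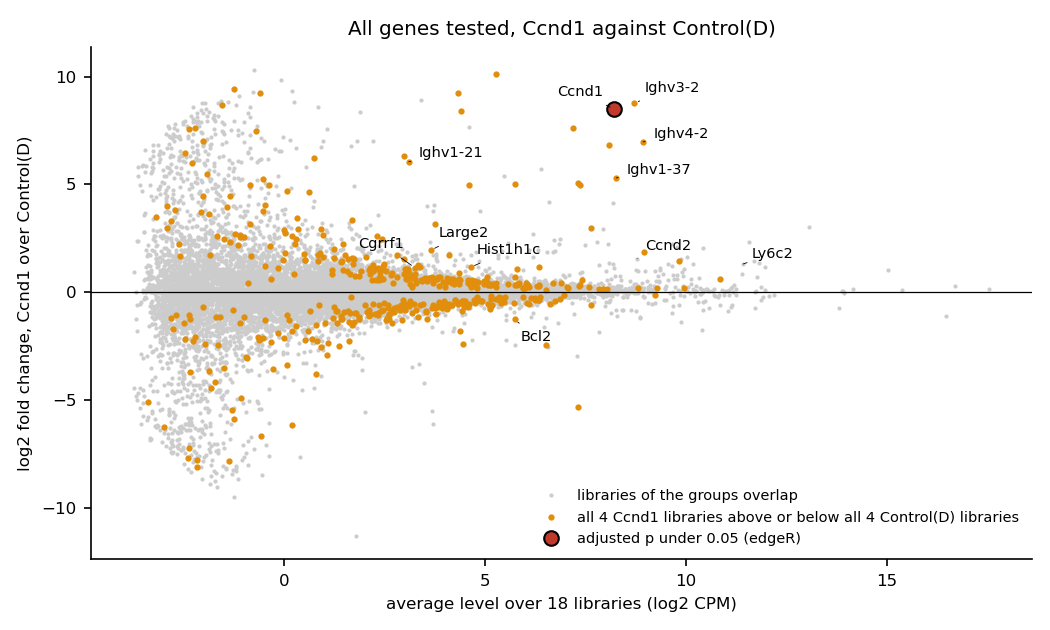
Log2 fold change of the Ccnd1 group over Control(D) for every tested gene, against the average log2 CPM. Orange points are genes whose 4 libraries per group do not overlap (248 above, 202 below), and Ccnd1, in red, is the single gene with an adjusted p under 0.05.

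The 8 libraries held 59424690 to 74833411 estimated reads each, of which 21427767 to 27232969 in controls and 21744071 to 24195118 in the Ccnd1 group lay outside the immunoglobulin loci. Between 12896 and 13374 genes had at least 10 reads. Over 6036 genes, log2 levels correlated at 0.926 to 0.938 among the controls and at 0.846 to 0.931 among the Ccnd1 libraries, as a description of libraries that share a depth and a gate. Ccnd1 library 4 stood apart from its own group, at 0.846 to 0.891. Xist, a transcript of female cells, exceeded 10 CPM in 1 of 4 controls and 2 of 4 Ccnd1 libraries. Summed over 15 neutrophil and granule genes, the level was 81.1, 558, 331 and 65.1 CPM in the controls and 878, 1750, 409 and 567 CPM in the Ccnd1 libraries.

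The question of whether cyclin D1 moved S phase genes was addressed with 45 E2F target genes of the G1/S transition, among them the MCM helicase subunits, DNA polymerase subunits and nucleotide synthesis enzymes. None passed the test. The median log2 fold change was 0.01, the same as over all genes tested, with 23 members above 0 and 22 below and a range of -1 to 1.31. Summed over the list, the level was 479 to 571 CPM in the controls and 460 to 585 CPM in the Ccnd1 libraries, so the groups overlapped. No member lay above all controls in all 4 Ccnd1 libraries, beside 1.62% of all genes tested. Below them lay 1 member of 45, beside 1.32% of all genes tested. This was Tk1, the thymidine kinase of the salvage pathway, at 21.4, 16.4, 13.3 and 19.5 CPM in controls. It was 10.2, 12.9, 13 and 12.8 CPM in the Ccnd1 libraries (log2 fold change -0.53, edgeR adjusted p = 0.799).

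The promoters of 3 list members are shown because they carry the E2F motif on which cyclin D1 signalling is known to converge. They are the list members of highest level with a match before the start site, read from RefSeq promoter sequences of GRCm38.p6 in the direction of the gene, with the motif in capitals.
Mcm6: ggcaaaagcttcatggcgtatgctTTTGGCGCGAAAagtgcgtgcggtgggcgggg
Cdc25a: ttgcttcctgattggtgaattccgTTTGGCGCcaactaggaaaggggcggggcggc
Mcm7: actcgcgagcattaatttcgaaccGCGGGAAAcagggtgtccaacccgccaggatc
The windows are chr1:128359784-128359839 on the minus strand, chr9:109875488-109875543 on the plus strand and chr5:138172017-138172072 on the minus strand, with the motif starting 110, 67 and 165 bases before the start site. In Mcm6 the capitals hold overlapping matches, TTTGGCGC and the reverse complement of TTTCGCGC. The Mcm7 match is the reverse complement of TTTCCCGC. The letters searched were TTTCCCGC, TTTCGCGC, TTTGCCGC and TTTGGCGC on both strands, from 250 bases before to 50 bases after each start site. A match stood in 16 of 36 promoters of the G1/S list (44.4%), 1 of 27 of the mitosis list (3.7%) and 471 of all 10343 promoters of tested genes (4.55%). Genes with a match had a median log2 fold change of 0.01 over all promoters and -0.13 within the G1/S list. Of the 471, 10 lay above all controls (2.12%) and 3 below (0.637%), beside 1.62% and 1.32% of all genes tested, and none of those was in the G1/S list.

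The mitosis list, 32 genes of the spindle, kinetochore and mitotic kinases, gave a similar count. Its median was 0.02 with 17 above 0 and 15 below, and its summed level was 144 to 270 CPM in controls and 160 to 235 CPM in the Ccnd1 libraries. The member without overlap was Cenpf, a kinetochore protein, or 3.12% of the list beside 1.62% of all genes tested. It was 1.53, 2.17, 0.232 and 1.85 CPM against 3.48, 4.57, 4.83 and 2.78 CPM (log2 fold change 1.44, edgeR adjusted p = 0.739). Plk1, a mitotic kinase, differed by 1.06 without passing. The 14 homologous recombination genes had a median of 0.24, with 9 above 0 and 5 below and none called.

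After Ccnd1, the genes of smallest p or largest fold formed the next tier, and none of them passed the test in this comparison. They were 18 genes, 8 higher and 10 lower, averaging at least 3 on the log2 CPM scale. Lack of overlap between the 2 groups was a condition of the ranking. Of the 5935 genes at that level, 113 lay above all controls and 88 below. Over all 15323 genes tested, 248 lay above and 202 below. DESeq2 called 10 of the 18, beside 0.841% of all genes it tested. It used the same libraries that gave the ranking, so this count is no separate evidence. The comparison of Ccnd1-Ikk2ca with Ikk2ca(D) called 1. That comparison uses other libraries and called 65 genes in all, or 0.424% of those tested, with 8 higher and 57 lower.

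Hist1h1c encodes the linker histone H1.2, which binds DNA between nucleosomes (chr13:23738808-23740367). It was 12.3, 13.9, 10.6 and 16.4 CPM in the controls and 31.7, 27.1, 23.0 and 37.3 CPM in the Ccnd1 libraries. The groups did not overlap, which was a condition of the ranking. Means were 13.3 ± 2.46 and 29.8 ± 6.13 CPM (SD, n = 4), a log2 fold change of 1.16 with a standard error of 0.224 and an interval of 0.69 to 1.63 (edgeR adjusted p = 0.389). In the libraries with the second transgene it rose from 12.4, 15.6, 17.1 and 22.9 CPM in Ikk2ca(D) to 29.8, 33.9, 26.7, 47.3, 42.9 and 29.8 CPM in Ccnd1-Ikk2ca, a log2 fold change of 1.05 (edgeR adjusted p = 0.0352). All 10 libraries with the Ccnd1 transgene therefore held at least 23.0 CPM and the 8 without it at most 22.9 CPM. The controls of the other cohort ranged from 15.4 to 46.4 CPM on a scale common to all 36 libraries, on which Control(D) held 10.9 to 16.7 and Ccnd1 23.5 to 38 CPM. DESeq2 called the gene in the comparison of Ccnd1 with Control(D) (adjusted p = 0.000186).

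Bcl2, which encodes an inhibitor of the mitochondrial route of apoptosis, was the gene of smallest p among those lower in the Ccnd1 group (chr1:106538178-106714274). It was 74.7, 52.8, 59.5 and 83.6 CPM in the controls and 24.1, 21.2, 36.4 and 31.4 CPM in the Ccnd1 libraries. Every Ccnd1 library lay below every control, as the ranking required. Means were 67.6 ± 14 and 28.3 ± 6.89 CPM, a log2 fold change of -1.26 with an interval of -1.83 to -0.69 (edgeR adjusted p = 0.583, DESeq2 adjusted p = 0.00478). With the second transgene Bcl2 was 45.6 to 103 CPM in Ikk2ca(D) and 37.9 to 72.3 CPM in Ccnd1-Ikk2ca, a difference of -0.36 (edgeR adjusted p = 0.683). The 4 Ccnd1 libraries were thus lower than the other 14 libraries of the cohort. The difference between both effects did not pass either (edgeR adjusted p of the interaction = 0.68). Control(M) held 23.5 to 68.4 CPM on the scale common to all libraries, which overlaps the Ccnd1 group at 21.4 to 37.1 CPM.

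Of the remaining genes that were higher, Cgrrf1, named as a growth regulator with a RING finger, was 4.2, 4.04, 6.57 and 3.7 CPM in controls and 9.93, 12.4, 9.06 and 9.55 CPM in the Ccnd1 libraries (log2 fold change 1.14, edgeR adjusted p = 0.583). Its level was 7.77 to 15.6 CPM in the Ikk2ca-carrying groups and 8.69 to 13.5 CPM in Control(M), so Control(D) held the low libraries. Gpr19, an orphan G protein-coupled receptor, was 6.78, 7.08, 7.35 and 7.44 CPM in controls and 14.4, 14.2, 10.7 and 13.2 CPM in the Ccnd1 libraries (0.87, edgeR adjusted p = 0.739). The 10 Ikk2ca-carrying libraries were at or below 9.68 CPM and Control(M) at 4.43 to 8.02 CPM, so here the Ccnd1 libraries were the high ones. Large2, a glycosyltransferase that extends the sugar chains of dystroglycan, was 1.07 to 2.19 CPM in controls and 2.32 to 11.5 CPM in the Ccnd1 libraries (1.95, edgeR adjusted p = 0.739). It reached 3.79 to 19.4 CPM in Ikk2ca(D) and 18.5 to 32.4 CPM in Ccnd1-Ikk2ca. Spata6, Siae, Fam32a and Pqlc1 differed by 1.26, 0.88, 0.69 and 1.19, and by 0.79, 0.32, 0.04 and -0.09 between Ccnd1-Ikk2ca and Ikk2ca(D), where none passed.

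On the lower side, Fbxo31 encodes an F-box protein known to direct cyclin D1 to degradation. It was 11.8, 15.2, 11.4 and 14.1 CPM in controls and 7.99, 9.26, 6.52 and 5.87 CPM in the Ccnd1 libraries, without overlap (log2 fold change -0.83, edgeR adjusted p = 0.739). Abhd12, a lipase of lysophosphatidylserine, was 22.7, 25.1, 23.6 and 26.1 CPM against 12.9, 15.3, 13 and 19.7 CPM (-0.68, edgeR adjusted p = 0.739). Neither gene passed the test, and the lack of overlap was a condition of the ranking. Tmem106b, Zmynd8, Ece1, Ddx58, Parp2 and Usp28 differed by -0.69, -0.62, -1.13, -0.69, -0.74 and -0.95. Between Ccnd1-Ikk2ca and Ikk2ca(D), Fbxo31 differed by -0.15 and Abhd12 by 0.25, the latter in the other direction, and neither passed. There Tmem106b, Zmynd8, Ece1, Ddx58, Parp2 and Usp28 differed by 0.02, -0.14, -0.56, -0.57, 0.18 and -0.46, none of which passed. The difference between both effects of Abhd12 was 0.93 (edgeR adjusted p of the interaction = 0.572).

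**Figure D3:**
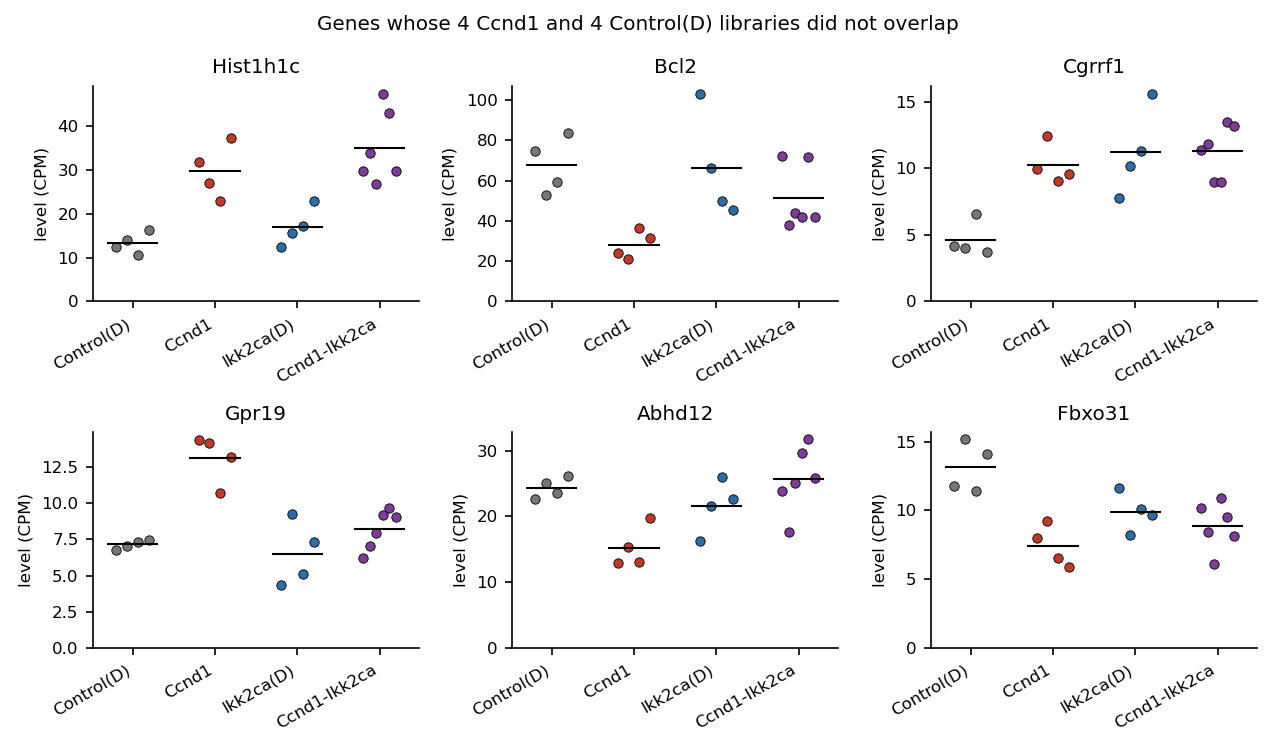
CPM of Hist1h1c, Bcl2, Cgrrf1, Gpr19, Abhd12 and Fbxo31 in each library of the 4 cohort groups, with the group mean as a line. In each panel the Ccnd1 and Control(D) libraries do not overlap, which was a condition for choosing these genes. For Hist1h1c the Ccnd1-Ikk2ca libraries also lie above Ikk2ca(D).

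Bcl2 belongs to the list of 19 apoptosis genes, of which none passed, 7 were above 0 and 12 below, with a median of -0.1. Xiap, an inhibitor of caspases, was 21.3, 15.4, 18.6 and 18.6 CPM in controls and 13.9, 10.3, 14.3 and 14.4 CPM in the Ccnd1 libraries (log2 fold change -0.48, edgeR adjusted p = 0.739). Bcl2l1, which encodes the survival protein BCL-XL, was 11.2 to 20.2 CPM in controls and 13.5, 39.8, 24 and 41.4 CPM in the Ccnd1 libraries (0.81, edgeR adjusted p = 0.765), with overlap. Of 22 tested p53 target genes none passed, 14 were above 0 and 8 below, with a median of 0.15. Ccng1, a cyclin induced by p53, was 36.8 to 54.1 CPM in controls and 42.6 to 88.5 CPM in the Ccnd1 libraries (0.53), and Btg2 differed by 0.35.

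No gene of plasma cell identity passed the test. Of 26 identity genes, 17 were above 0 and 9 below, with a median of 0.08. Sdc1, which encodes CD138, the surface marker of the sort, was 386, 323, 393 and 359 CPM in controls and 429, 391, 425 and 484 CPM in the Ccnd1 libraries (log2 fold change 0.24). Ly6c2 spread from 158 to 3190 CPM in the Ccnd1 group against 475 to 839 CPM in controls (1.31, edgeR adjusted p = 0.85). Ccnd1 library 1 was lowest and library 4 highest for this surface protein. Of 32 secretory and unfolded protein response genes none passed, 24 were above 0 and 8 below, with a median of 0.12. Sel1l, an adaptor of endoplasmic reticulum degradation, differed by 0.76, the chaperone Creld2 by 0.49 and Herpud1 by -0.41. Of the 6 tested genes that are therapy targets in myeloma, 3 were above 0 and 3 below, with a median of -0.01. Among them Cd38 differed by -1.06 with a wide interval of -4.48 to 2.37, with overlap and without passing.

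Immunoglobulin transcripts took 62.2, 63.6, 64.0 and 63.9% of reads in controls and 64.8, 68.6, 64.9 and 62.1% in the Ccnd1 libraries. The groups overlapped, and the difference of 1.63 percentage points between means of 63.4 ± 0.825 and 65.1 ± 2.68% (SD, n = 4) did not pass (exact permutation test, two-sided, p = 0.314, adjusted over 15 library measures 0.786). With 4 libraries against 4 the smallest p this test can give is 0.0286. The shares of the main constant regions, Ighm and Igha, overlapped between groups. Ighm, of IgM, took 16.2, 21.3, 6.89 and 46.2% of heavy chain constant reads in controls and 3.73, 8.15, 9.7 and 14% in the Ccnd1 libraries (exact permutation p = 0.143, adjusted 0.714). Igha, of IgA, took 64.9, 58.1, 74.3 and 29.0% against 86.1, 58.9, 65.5 and 15.1%, with the lowest value in library 4 of each group. Ccnd1 library 4 was also the library with 26.3% Ighg1 and 10.2% Ighg3. The kappa share of light chain reads was 92.5 ± 1.97 and 94 ± 1.77%.

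V gene use describes which B cell clones the plasma cells came from. The effective number of heavy chain V genes was 50, 49.7, 51.9 and 52.1 in controls and 65.9, 59.7, 58 and 32.5 in the Ccnd1 libraries, so library 4 was the least diverse and the other 3 the most. The effective number of kappa V genes was 41.1 to 46.9 in controls and 48.2, 46.5, 46.1 and 23.5 in the Ccnd1 libraries, and a single kappa V gene took 24.6% of kappa V reads in library 4. Heavy chain V genes annotated as pseudogenes took 0.0812, 0.0783, 0.0953 and 0.0735% of heavy chain V reads in controls and 3.22, 3.33, 2.35 and 1.63% in the Ccnd1 libraries. The groups did not overlap, and the means of 0.0821 ± 0.00935 and 2.64 ± 0.799% gave the smallest p the exact permutation test allows, 0.0286, or 0.429 after adjustment. The share also differed within other groups, from 0.0883 to 15.4% in Ikk2ca(D) and from 0.0193 to 3.92% in Control(M).

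V genes were counted where they took over 0.01% of the V reads of their chain. Among 123 such heavy chain V genes, 20 took a larger share in all 4 Ccnd1 libraries than in any control (16.3%). A smaller share was taken by 1 (0.813%). Of all tested genes, under another filter and by CPM, 1.62% lay above and 1.32% below. Genes near absent from controls could pass the cut only through the Ccnd1 libraries, so the 16.3% is partly set by the cut. Ighv1-86, for example, took 0 to 4.63e-05% in controls and up to 0.0429% in the Ccnd1 libraries. Among 98 kappa V genes past the same cut, 0 were above and 3 below (3.06%), namely Igkv4-50, Igkv5-45 and Igkv4-62. Ighv3-2 was 1.18, 1.04, 0.96 and 1.29 CPM in controls and 1030, 563, 224 and 130 CPM in the Ccnd1 libraries. Ighv4-2 was 1.5, 2.81, 3.05 and 1.45 CPM against 159, 365, 500 and 78.5 CPM. Both were near absent from controls, and the fit of the 8 libraries alone called them at edgeR adjusted p = 0.011 and 0.0267, together with Ighv1-37 at 0.0267 and Ighv1-21 at 0.011. In the fit over the whole cohort the same 4 genes did not pass, with edgeR adjusted p of 0.739 to 0.776. V genes resemble one another closely, so reads can be divided between copies, and differences between single V genes are uncertain. The labels give 1 strain for all groups, and whether the groups carry the same germline set of heavy chain V genes was not tested.

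**Figure D4:**
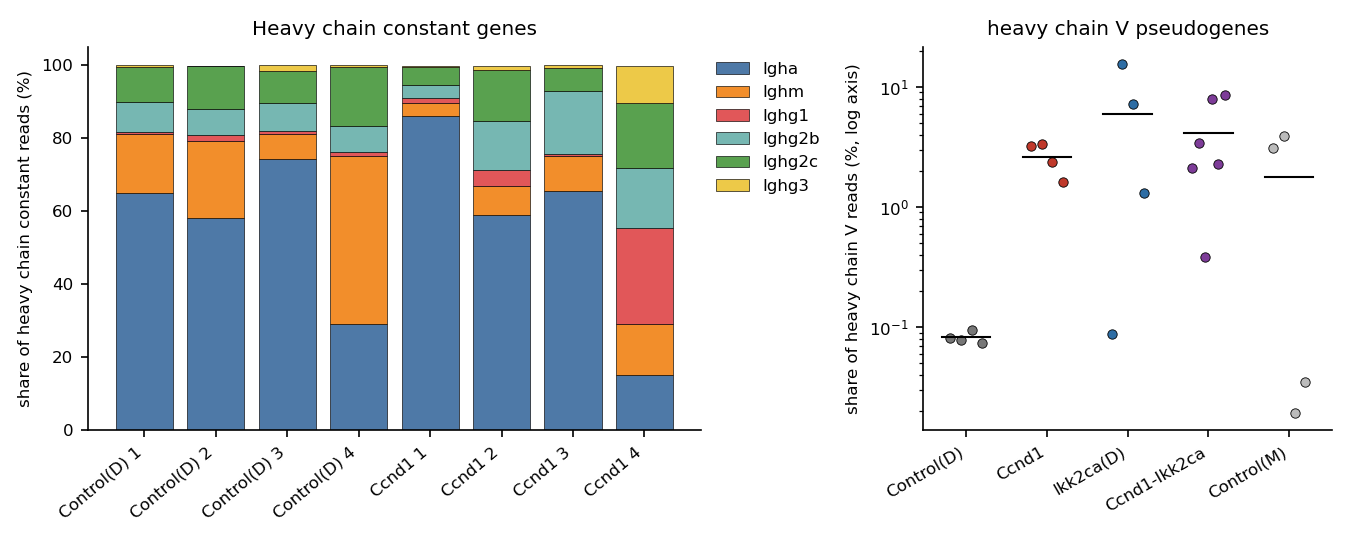
Left, shares of heavy chain constant region reads by isotype gene in each of the 8 libraries, in percent. Right, share of heavy chain V reads on genes annotated as pseudogenes, in percent on a log axis, in 5 groups, where the 4 Ccnd1 libraries (1.63 to 3.33%) lie above the 4 Control(D) libraries (0.0735 to 0.0953%).

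Genes of the B cell stage, which plasma cells normally shut down, showed no call. Of 27 B cell genes 10 were above 0 and 17 below, with a median of -0.19. Cd37 differed by -0.65 and Btk by -0.49, while Ly6d went the other way, with 225 to 333 CPM in controls and 141 to 931 CPM in the Ccnd1 libraries (log2 fold change 0.86, edgeR adjusted p = 0.739). Of 11 genes for MHC class II presentation, 1 was above 0 and 10 below, with a median of -1.13 and none called. H2-Ab1 was 432, 257, 184 and 562 CPM in controls and 228, 105, 149 and 225 CPM in the Ccnd1 libraries (log2 fold change -1.02), with overlap, and H2-Eb1 and H2-DMa differed by -1.13 and -1.02. Cd74, the invariant chain, was 2270 to 3550 CPM in controls and 1150 to 4460 CPM in the Ccnd1 libraries, a difference of -0.13. In the comparison of Ccnd1-Ikk2ca with Ikk2ca(D) the medians were -1.42 for the B cell list and -1.27 for the MHC class II list, with 1 B cell gene called lower. MHC class II genes are shared by B cells, monocytes and dendritic cells, and summed monocyte and macrophage genes were 108 to 178 CPM in controls and 169 to 334 CPM in the Ccnd1 libraries. Of the members of that monocyte list, 8 of 13 were below 0, with a median of -0.61. The other 5 were above 0, up to 1.15. Of the 13, 1 lay above all controls and 1, C1qb, below them, beside 1.62% and 1.32% of all genes tested. The complement gene C1qb was 2.76 to 6.17 CPM in controls and 0 to 1.38 CPM in the Ccnd1 libraries, which is near the floor. The macrophage marker Cd68 was 26.9 ± 4.16 and 17.6 ± 6.58 CPM, with overlap. Both were named for their small p within the list and do not stand for the 5 members above 0. Neither C1qb nor Cd68 passed the test, and the part of these cells in the MHC class II values was not tested. A difference in the number of such cells and a difference in RNA per cell cannot be told apart in these libraries.

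A test of the difference itself, whether the Ccnd1 effect was different in the presence of Ikk2ca, called 4 genes, or 0.0261% of those tested. Cd79a, which encodes the Ig-alpha subunit of the B cell receptor, was 423 to 692 CPM in Control(D) and 370 to 863 CPM in the Ccnd1 libraries, a log2 fold change of 0.03. It was 265 to 469 CPM in Ikk2ca(D) and 58.8 to 126 CPM in Ccnd1-Ikk2ca. The effect without Ikk2ca was thus near 0, and the difference between effects was -2.12 (edgeR adjusted p = 0.031). Over 16 alternatives its adjusted p ranged from 2.55e-05 to 0.56, and in 10 of them it no longer passed. The count of 4 fell to 0 over all 36 libraries and to 1 with voom or with Xist as a covariate, and it ranged from 0 to 6 with a library left out. Pltp, Prkcb and Gpr174 differed by 0.26, 0.05 and 0.45 between Ccnd1 and Control(D), and their 6 Ccnd1-Ikk2ca libraries together held 1, 7 and 1 reads.

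The nuclear-encoded subunits of oxidative phosphorylation were mostly a little above 0. None of its 36 genes passed, 33 were above 0 and 3 below (Ndufs1, Sdha and Atp5a1), with a median log2 fold change of 0.21 beside 0.01 over all genes tested. Their summed level was 2210 to 2480 CPM in controls and 2590 to 2760 CPM in the Ccnd1 libraries, without overlap. Ndufa1, Ndufb3, Ndufb8, Cox5b and Cox6c lay above all controls in all 4 libraries, 13.9% of the list beside 1.62% of all genes tested. Over all genes tested, the share above all controls rose with level. It was 1.82% for genes averaging 3 to 6 on the log2 CPM scale and 3.63% for genes above 6. Cox5b, a subunit of cytochrome c oxidase, was 34.7, 33.5, 36.6 and 37.1 CPM against 48.7, 43.1, 46.3 and 47.9 CPM (0.39, edgeR adjusted p = 0.739). Ndufa1, a subunit of complex I, was 102, 113, 126 and 104 CPM against 131, 149, 164 and 216 CPM (0.57). The median of the list was 0.17 between Ccnd1-Ikk2ca and Ikk2ca(D), where it was 0.35 for the G1/S list and -0.01 for the glycolysis list. No median over all genes is given here for that comparison. All 13 genes of the mitochondrial genome were above 0 with a median of 0.14 and none called. Of these, mt-Atp6 had no overlap, or 7.69% of the list beside 1.62% of all genes tested. Of 17 glycolysis genes 10 were above 0 and 7 below with a median of 0.06, and of 16 MYC and growth genes 7 were above 0 and 9 below with a median of -0.03.

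**Figure D5:**
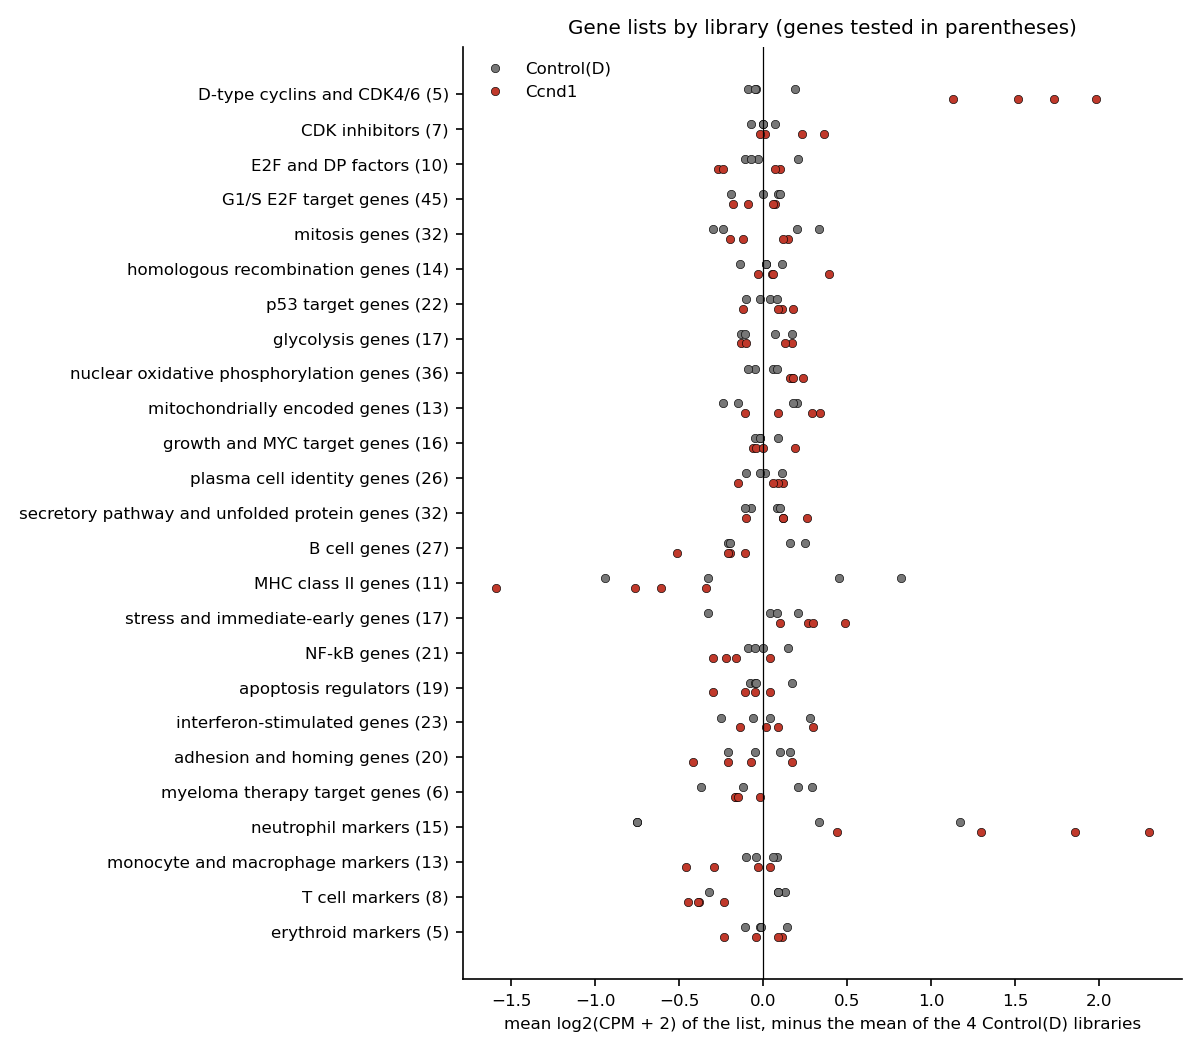
For each gene list with at least 5 tested members, the mean log2(CPM + 2) over members in each of the 8 libraries, less the mean of the 4 Control(D) libraries. The oxidative phosphorylation list lies at 0.16 to 0.24 in the Ccnd1 libraries and at -0.09 to 0.08 in the controls, the G1/S list overlaps, and the neutrophil list has the widest spread.

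Signalling lists also had no call. Of 21 NF-kB genes 6 were above 0 and 15 below, with a median of -0.18. Icam1, an adhesion molecule and NF-kB target, differed by -0.44, and it was 86.3 to 288 CPM in the Ikk2ca-carrying groups. Traf1, another target, differed by -0.9. Of 23 tested interferon-stimulated genes 14 were above 0 and 9 below with a median of 0.09, among them Zbp1 at 0.58 and Gbp7 at 1.13. Of 20 adhesion and homing genes 8 were above 0 and 12 below with a median of -0.13. Immediate early and heat shock genes, which respond to tissue dissociation and sorting, had 16 of 17 tested members above 0 and a median of 0.81, none called. Summed over the list, the level was 114 to 189 CPM in controls and 174 to 200 CPM in the Ccnd1 libraries, with overlap. Atf3 of that list had 0 reads in the controls and 192 in the Ccnd1 group, at 0, 1.68, 1.7 and 0 CPM.

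Markers of other marrow cells were measured in the same libraries. All 15 neutrophil and granule genes were above 0, with a median log2 fold change of 1.85 and none called, and Camp and Csf3r lay above all controls (13.3% of the list beside 1.62% of all genes tested). S100a8, an abundant neutrophil calcium-binding protein, was 31.5, 163, 102 and 19.1 CPM in controls and 290, 578, 123 and 151 CPM in the Ccnd1 libraries. Elane, neutrophil elastase, was 0, 3.91, 0.0166 and 1.37 CPM against 25.7, 4.24, 0 and 19.4 CPM. Between Ccnd1-Ikk2ca and Ikk2ca(D) the median of the same list was -2.17. Of 13 tested monocyte genes 5 were above 0 and 8 below with a median of -0.61, and of 8 tested T cell genes 2 were above 0 and 6 below, with sums of 16.1 to 39 CPM in controls and 11.9 to 18.7 CPM in the Ccnd1 libraries. Erythroid markers summed to at most 3.84 CPM and B cell precursor markers to at most 0.298 CPM in any of the 8 libraries. The part of these cells in the gene differences above was not tested.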

How the data were processed

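RNA of sorted plasma cells was reverse-transcribed from oligo-dT with template switching and made into Nextera XT libraries, per the labels' protocols. The submitters' processing notes name bcl2fastq 2.20.0.422, Salmon 1.3.0, DESeq2 1.32.0 and GRCm38. The authors deposited, per transcript and library, an expected count (estimated reads, not whole numbers) and a TPM value. Deposited estimated counts were summed per gene with the names of GENCODE mouse release 21 (139960 of 140825 transcripts matched, and 0.0636 to 0.11% of reads did not) and rounded. TPM values were summed per gene.

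Genes were filtered with filterByExpr, normalised by TMM and tested with the robust quasi-likelihood test of edgeR 4.0.16 over all 18 libraries of the cohort, which share 1 estimate of spread. Calls are two-sided with a Benjamini-Hochberg adjusted p under 0.05. CPM uses TMM-scaled library sizes. Shares of reads were compared with exact permutation tests. Alternatives were DESeq2 1.42.0, limma 3.58.1 with voom, other normalisations and filters, a replicate block, fewer or more libraries, and each library left out. The fits were tested on simulated data.

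Members and lists were chosen with earlier results of these data known. Named genes were Ccnd1, its cell cycle partners, genes called in the fits of the cohort or of the 2 groups, and in each direction the 8 genes of smallest p and the 4 of largest fold at an unadjusted p under 0.05. The ranking took genes averaging at least 3 on the log2 CPM scale whose groups did not overlap, without immunoglobulin segments, pseudogenes, unnamed models, Y-linked genes and Xist. Up to 3 members of smallest p came from each other list. Camp, Cd74, Cox6c, Ndufb3, Sdha, S100a8 and the kappa V genes named were chosen after their values were seen, as were Gt(ROSA)26Sor, Lpar4 and Ighv3-4. 1 gene of the ranking is not reported here.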

Additional observations from a re-analysis of the deposited data

Results flagged for a closer look

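In 244 groups of 4 values examined, 17 had a sample whose gap to its nearest neighbour took up more of the group's range than Dixon's 95% value for 4 samples allows. Chance gives about 1 in 20 such groups when values are normally distributed. Several flagged groups hold values at or near 0 CPM, such as those of Cdkn1c, Ifit1 and Hspa1b, and for these that rate does not apply. Ccnd1 library 4 accounted for 6 of the 17. Its share of heavy chain constant reads was 26.3% for Ighg1 and 10.2% for Ighg3, its effective number of kappa V genes was 23.5, and its most used kappa V gene took 24.6% of kappa V reads. It also held 4.43 CPM of Cdk6, the partner of cyclin D1, and 1.63 CPM of Ifit1, an interferon-stimulated gene.

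Ccnd1 library 2 stood apart for Rbl1, a relative of RB, at 2.67 CPM, for the mitotic checkpoint kinase gene Bub1 at 1.82 CPM, for Xiap at 10.3 CPM and for Csf3r, the receptor of a neutrophil growth factor, at 8.41 CPM. Ccnd1 library 1 stood apart for Tk1 at 10.2 CPM and for Cdkn1c, which encodes the CDK inhibitor p57, at 1.12 CPM. Ccnd1 library 3 held 0.241 CPM of the heat shock gene Hspa1b. Among the controls, library 3 stood apart for Cdkn1c at 0.381 CPM and Cdkn2b, an INK4 inhibitor gene, at 0 CPM, library 2 for Ndufb8 at 35.6 CPM, and library 1 for its most used kappa V gene at 9.36%.

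The effect of Ccnd1 differed between cells with and without Ikk2ca by -2.12 for Cd79a, -9.04 for Pltp, -7.79 for Prkcb and -8.8 for Gpr174 on the log2 scale (edgeR interaction test, adjusted p of 0.031, 0.0124, 0.029 and 0.029). The last 3 values come from fits close to 0 reads in the Ccnd1-Ikk2ca libraries and give no usable size.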

How the results depend on the processing

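The count of 1 called gene became 142 under DESeq2, 0 under limma with voom, 5 with only the 2 groups, 2 with the replicate block (Ccnd1 and Hist1h1c), 12 with the replicate block and only the 2 groups, and 1 to 3 when a library was left out. Without Control(D) library 4 the calls were Ccnd1 (edgeR adjusted p = 0.000318), Gt(ROSA)26Sor (log2 fold change 5.06, 0.00355) and Ighv3-4 (-10.53, 4.16e-07), and without library 1 they were Ccnd1 and Lpar4 (7.28, 0.0377). Same-numbered libraries correlated at 0.017, 0.066, 0.073 and 0.183 in their deviations from the group mean. Differently numbered ones correlated at -0.144 to 0.114. For Ccnd1 libraries 2, 3 and 4 the same-numbered control gave the highest value. The main fit took the libraries as unpaired, and the labels do not say whether shared numbers mark a pairing. The Ccnd1 log2 fold change was 8.47 with voom, where its adjusted p was 0.623, and 8.36 to 8.77 with a library left out. The 4 interaction calls became 153 under DESeq2, 1 with voom, 0 over all 36 libraries (1051 genes at an unadjusted p under 0.05 in the cohort), 1 with Xist as a covariate, and 0 to 6 with a library left out. The immunoglobulin share by TPM differed by -0.0281 percentage points instead of 1.63. E2f2 was -0.01 with the replicate block and only the 2 groups, and Rbl2 was -0.01 with voom. Leaving out Y-linked genes and Xist, chosen after seeing the data, left 1 call. For all of these the cause was not tested.

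With 1 library left out, log2 fold changes ranged from -0.07 to 0.14 for Cdk4, -5.75 to 7.28 for Cdkn1c, 0 to 1.12 for Cdkn2b, -0.18 to 0.02 for Cdkn2d, -0.12 to 0.25 for E2f2, -0.34 to 0.01 for E2f4, -1.81 to 0.49 for E2f7, -1.38 to 5.85 for Ifit1, -0.15 to 0.42 for Rbl1, -0.2 to 0.3 for Rbl2 and -0.41 to 0.05 for Tfdp2. Differences ranged from -10 to 13.6 percentage points for the Igha share, -3.27 to 1.03 for Ighg2c, -2.08 to 0.83 for the largest heavy chain V gene, -1.86 to 4.49 for the largest kappa V gene and -0.0499 to 0.215 for the mitochondrial share. They ranged from -0.861 to 10.3 for the effective number of heavy chain V genes and -5.63 to 2.59 for that of kappa V genes. Of 1987 values of named genes under alternatives, 1947 kept direction and side of the threshold, 18 turned direction, 21 passed newly and 1 call was lost (Ccnd1 with voom), and 3 of 95 list medians moved.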

Other observations

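Gt(ROSA)26Sor, the transcript of the Rosa26 locus at chr6:113067428-113077333, a site widely used for transgenes, differed between libraries of both groups. It was 0.212, 0.232, 0.149 and 5.51 CPM in Control(D) and 6.34, 7.44, 9.39 and 3.46 CPM in the Ccnd1 libraries (log2 fold change 2.13, edgeR adjusted p = 0.739). Control(D) library 4 was the one control in the range of the Ccnd1 group. The transcript was 4.25 to 8.67 CPM in Ikk2ca(D) and 0.227 to 1.86 CPM in Ccnd1-Ikk2ca. Control(M) held 12.5 to 24.2 CPM on the scale common to all 36 libraries.

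Genes without overlap were not spread evenly over chromosomes, as a description made after the values were seen. On chromosome 12, which holds the heavy chain locus, 25 of 666 tested genes lay above all controls (3.75%), 18 of them heavy chain V genes, and 4 below (0.601%). On chromosome 5, 3 of 974 lay above (0.308%) and 26 below (2.67%), against 1.62% and 1.32% of all tested genes.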
